A study of Mus musculus with 8 samples.

Results

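Transcripts of 8 podocyte genes, *Nphs1*, *Wt1*, *Podxl*, *Synpo*, *Magi2*, *Cd2ap*, *Ptpro* and *Tcf21*, were followed in tubuloids, three-dimensional structures grown between layers of Matrigel from fragments of mouse kidney tubules. The genes were taken by symbol from the 24063 genes listed in every culture. Of these genes, 16557 passed a filter on low counts, all 8 podocyte genes among them. RNA came from 4 control cultures, numbered 3, 7, 14 and 21, and from 4 cultures, numbered 6, 12, 17 and 22, that were given glial cell line-derived neurotrophic factor (GDNF) at 20 ng/ml as a pulse of 24 h, and every culture was extracted on day 7. Both groups came from mice of the genotype Pkd2fl/fl Pax8rtTA TetOCre mTmG, in which a *Pax8*-driven, doxycycline-dependent Cre in renal epithelium can delete floxed *Pkd2* and switch a membrane reporter. Doxycycline is not named in the treatment of these 8 cultures. The labels give kidneys of postnatal day 7 to 10, an age range that differs from the younger one in the study's methods. Nothing in the labels ties a culture to an animal or a litter, so the p-values below measure only the spread between cultures.

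Podocytes are the epithelial cells that wrap the capillaries of the glomerulus, the filter at the start of each nephron. Their interlocking foot processes are joined by the slit diaphragm, a membrane-like junction whose backbone is nephrin, and are held in shape by actin and by a negatively charged surface coat. The same transcription factor that starts their program, WT1, is also used by nephron progenitors and by mesothelium, and TCF21 is also a factor of kidney stroma. The study made tubuloids from tubule fragments of whole kidney and described those pulsed with GDNF as collecting duct-like. It also reported that mature collecting duct markers did not seem to be present. Podocyte genes thus belong to a part of the nephron that the preparation was not meant to enrich. The cultured fragments were those held back by a strainer, and whether pieces of glomeruli were among them was not tested.

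Total deposited counts, summed over all listed transcripts, lay between 72991721 and 97490625 per culture. With 1 transcript per gene they lay between 46478959 and 62847247. No pair of cultures in a group differed by as little as counting error, with chi-square values per gene between 88.9 and 571. The trimmed mean of M-values (TMM) factor, a correction for the composition of each library, was 0.790 in control culture 3 and between 0.963 and 1.11 in the others. *Xist* exceeded the summed Y-linked transcripts in control cultures 3 and 7 and in GDNF cultures 6 and 12, and the Y-linked transcripts were higher in the other 4. Control culture 3 and GDNF culture 6 held both, with 1.5 and 6.46 TPM of Y-linked transcripts beside 12.5 and 57.4 TPM of *Xist*. These are also the cultures in which several of the podocyte genes were lowest, and values without them are given below.

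Promoter sequence from RefSeq was at hand for 5 of the 8 genes and for neither *Wt1*, *Podxl* nor *Synpo*. The 4 windows printed here run from 250 bases before to 50 bases after a start site, on the strand of the gene, in build GRCm38.p6. They are shown because *Magi2* has a pair of annotated starts that differ in base composition, because *Ptpro* varied most between cultures among the genes well above the detection limit, and because *Cd2ap* varied least. Capitals mark E-boxes (CANNTG) and sites of the WT1 and EGR type (GCGNGGGNG), searched on both strands.
*Magi2* upstream start, chr5:19226796-19227095, plus strand: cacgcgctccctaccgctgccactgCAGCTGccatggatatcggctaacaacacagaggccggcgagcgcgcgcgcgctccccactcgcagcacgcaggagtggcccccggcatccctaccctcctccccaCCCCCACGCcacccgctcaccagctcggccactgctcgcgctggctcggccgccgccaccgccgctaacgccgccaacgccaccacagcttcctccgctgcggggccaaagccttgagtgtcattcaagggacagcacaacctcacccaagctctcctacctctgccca
*Magi2* downstream start, chr5:19907268-19907567, plus strand: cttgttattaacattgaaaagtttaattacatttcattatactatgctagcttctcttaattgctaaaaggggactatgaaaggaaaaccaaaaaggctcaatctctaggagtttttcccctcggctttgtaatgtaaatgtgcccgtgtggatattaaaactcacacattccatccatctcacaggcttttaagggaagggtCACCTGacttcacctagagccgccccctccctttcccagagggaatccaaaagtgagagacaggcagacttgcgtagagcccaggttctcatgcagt
*Ptpro*, chr6:137252049-137252348, plus strand: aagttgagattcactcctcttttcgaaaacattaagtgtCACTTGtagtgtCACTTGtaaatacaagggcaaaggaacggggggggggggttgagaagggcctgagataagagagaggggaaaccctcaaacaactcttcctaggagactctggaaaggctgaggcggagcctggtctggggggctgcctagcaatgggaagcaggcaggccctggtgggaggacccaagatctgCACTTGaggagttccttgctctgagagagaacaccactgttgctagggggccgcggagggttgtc
*Cd2ap*, chr17:42876375-42876674, minus strand: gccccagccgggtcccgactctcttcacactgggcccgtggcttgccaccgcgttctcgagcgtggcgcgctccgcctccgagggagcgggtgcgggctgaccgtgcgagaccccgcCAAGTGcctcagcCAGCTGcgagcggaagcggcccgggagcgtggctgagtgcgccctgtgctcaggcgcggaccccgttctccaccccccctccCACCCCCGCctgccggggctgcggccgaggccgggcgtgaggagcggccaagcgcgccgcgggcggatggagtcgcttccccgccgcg
Among all 32851 promoter windows of this length, 72.3% held an E-box and 12.3% a site of the WT1 and EGR type. The *Cd2ap* window had a GC content of 77% and 41 CpG dinucleotides, more than 96.5% of windows. At the upstream *Magi2* start there were 29 CpG and a GC content of 69.3%, whereas the downstream start had 4 CpG and 43.0%. *Ptpro* had 3 E-boxes, no site of the WT1 and EGR type, 5 CpG and a GC content of 54.7%. The *Nphs1* and *Tcf21* windows, not printed, held neither motif and had 6 and 8 CpG, respectively, where the median window had 7. The *Nphs1* window, chr7:30459808-30460107, begins after the RefSeq gene start at 30458207 and the start in the GENCODE annotation at 30459725. It therefore lies within the gene and does not describe the sequence before those starts. The *Cd2ap* window also lies inside the RefSeq gene, whose minus-strand start is at 42876707. Likewise, the upstream *Magi2* window begins after the RefSeq gene start at 19219387. Both of these windows do span a transcript start in GENCODE, at 42876389 for *Cd2ap* and 19227051 for *Magi2*. These matches are a description of the letters in each window.

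Nephrin transcripts were close to the limit of detection. *Nphs1* (NM_019459, chr7:30458207-30488623, plus strand) encodes nephrin, the adhesion protein that spans the slit. In the control cultures it had 0 counts in culture 3, 38 in culture 7, 103 in culture 14 and 20 in culture 21. After the pulse there were 8 counts in culture 6, 44 in culture 12, 75 in culture 17 and 37 in culture 22. Expressed per length as TPM, the share of transcripts on a common scale, these were 0, 0.112, 0.312 and 0.0727 in control cultures and 0.0285, 0.155, 0.272 and 0.171 in GDNF cultures, and the groups overlapped over nearly their whole range. The count of 0 in control culture 3 allows a level of up to 0.00856 TPM, taking 3 counts as the floor, and covers counting error only. In the GENCODE annotation of the same build, 597 bases of *Nphs1* exons are shared with the antisense gene *Nphs1os* and 183 bases with the pseudogene *Rps12-ps4* on the opposite strand, and the library kit does not mark strand, so reads from these cannot be told apart from nephrin reads.

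The scaffold genes of the slit diaphragm were expressed at higher levels. *Magi2* (chr5:19219387-20704792, plus strand) encodes a PDZ-domain scaffold that holds nephrin at the membrane. Its transcript with the highest counts, NM_001170746, was at 1, 3.83, 4.98 and 3.67 TPM in control cultures 3, 7, 14 and 21. In GDNF cultures 6, 12, 17 and 22 it was at 2.25, 4.41, 5.98 and 8.06 TPM. The lowest culture of each group was again 3 and 6, and GDNF cultures 17 and 22 lay above every control culture.
*Cd2ap* (NM_009847, chr17:42748887-42876707, minus strand) encodes an adaptor that links nephrin to actin and is found in many cell types. Its TPM was 9.05, 12.4, 8.36 and 17 in the control cultures and 15.3, 16.1, 14.2 and 18.4 in the GDNF cultures. Control culture 21 lay among the GDNF cultures and the other 3 control cultures below all of them. In CPM, counts scaled to a common library size with the TMM correction and without regard to length, the groups were closer, with 41.3 ± 10.3 in control and 43.3 ± 3.59 in GDNF cultures (SD, n = 4 each).

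The surface proteins were led by *Podxl*. *Podxl* (NM_013723, chr6:31519493-31563937, minus strand) encodes podocalyxin, the sialic acid-rich protein of the surface coat, also made by endothelium and mesothelium. It was at 2.13, 4.30, 7.45 and 5.22 TPM in control cultures 3, 7, 14 and 21, and at 3.5, 7.07, 9.53 and 6.56 TPM in GDNF cultures 6, 12, 17 and 22. As for *Magi2*, cultures 3 and 6 were the lowest of their groups, and the groups overlapped.
*Ptpro* (chr6:137252299-137464634, plus strand) encodes a receptor tyrosine phosphatase of the apical foot process membrane. The long transcript NM_011216 was at 0.124 TPM in control culture 3, 1.28 in culture 7, 3.34 in culture 14 and 1.26 in culture 21. GDNF cultures had 0.396 TPM in culture 6, 2.19 in culture 12, 3.10 in culture 17 and 3.13 in culture 22. The highest culture exceeded the lowest 26.8-fold, with a control culture at both ends.

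*Synpo* (chr18:60593981-60660173, minus strand) encodes synaptopodin, an actin-binding protein of foot processes that also occurs in neurons. The transcript NM_177340 was at 5.86, 17.4, 27.1 and 14.3 TPM in control cultures 3, 7, 14 and 21. GDNF cultures 6, 12, 17 and 22 had 6.53, 33.5, 34.5 and 27.3 TPM. GDNF culture 6 lay beside control culture 3, and the other 3 GDNF cultures were above all control cultures.

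Both transcription factors were readily detected. *Wt1* (NM_144783, chr2:105126529-105173614, plus strand) encodes the zinc finger factor that directs the podocyte program. Control cultures had 3.26 TPM in culture 3, 14.3 in culture 7, 21.5 in culture 14 and 10.8 in culture 21. GDNF cultures had 11.0 TPM in culture 6, 21.1 in culture 12, 38.5 in culture 17 and 27.8 in culture 22. The values of cultures 17 and 22 lay above all control values, while cultures 6 and 12 lay within their range.
*Tcf21* (NM_011545, chr10:22817263-22820143, minus strand) encodes a basic helix-loop-helix factor of podocytes and of the kidney stroma. It was at 22.3, 33.3, 47.1 and 16.9 TPM in control cultures and at 24.0, 22.5, 29.8 and 22.6 TPM in GDNF cultures. Cultures 3 and 6 were not the lowest here. All 4 GDNF values lay between the lowest and the highest control value.

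**Figure D1:**
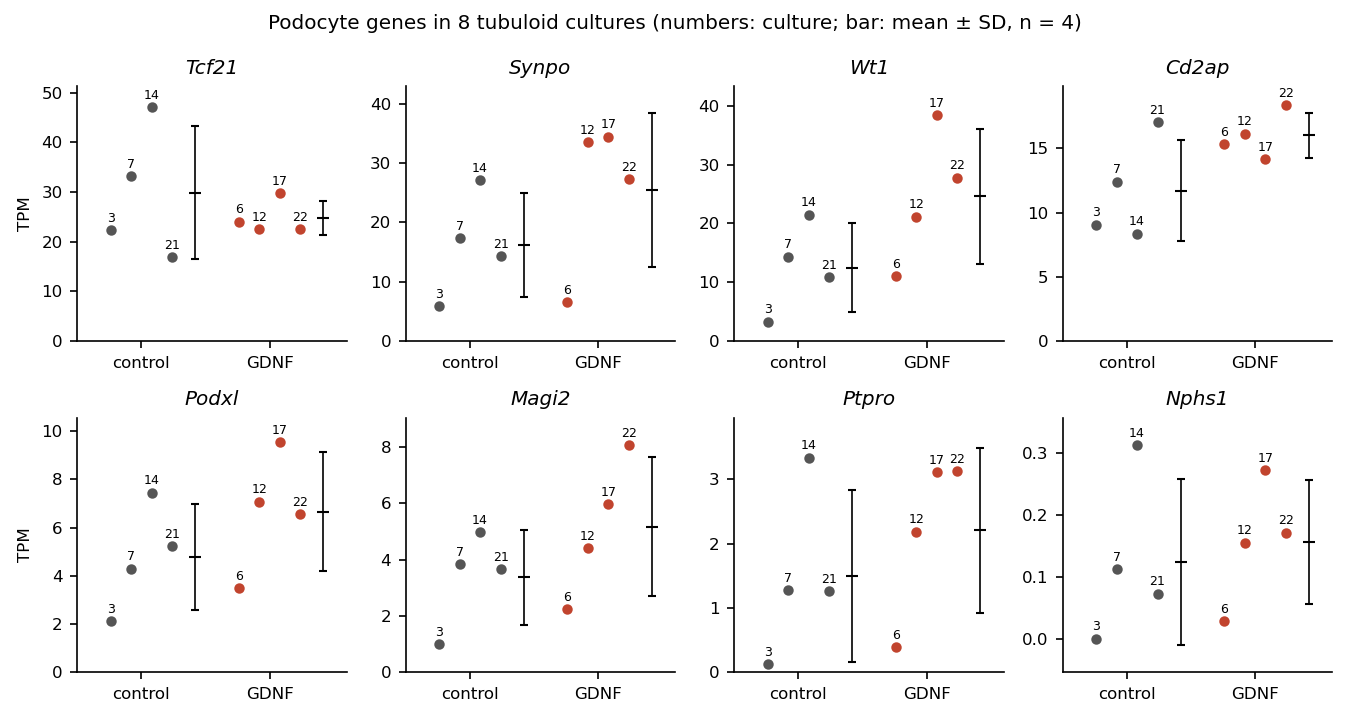
TPM of each podocyte gene in 4 control (gray) and 4 GDNF (red) cultures, numbered by culture, with the mean ± SD of each group as a black bar. Each panel has its own linear axis. The groups overlap in all 8 panels, and cultures 3 and 6 are the lowest of their groups in 6 of them.

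Ordered by mean TPM over the 8 cultures, the levels were *Tcf21* 27.3 ± 9.44, *Synpo* 20.8 ± 11.4, *Wt1* 18.5 ± 11.1, *Cd2ap* 13.9 ± 3.65, *Podxl* 5.72 ± 2.39, *Magi2* 4.27 ± 2.17, *Ptpro* 1.85 ± 1.27 and *Nphs1* 0.140 ± 0.111 (SD, n = 8). Neighbours among the first 4 genes could not be ordered beyond their spread, since each was above the next in only 5 of 8 cultures, while *Tcf21* exceeded *Cd2ap* in every culture but control culture 21. *Cd2ap* exceeded *Podxl* in all 8 cultures and *Podxl* exceeded *Magi2* in 7. *Magi2* exceeded *Ptpro*, and *Ptpro* exceeded *Nphs1*, in all 8. Of the 20312 genes with a count in any culture, 80.9% had a lower mean TPM than *Tcf21*, 52.6% a lower one than *Podxl* and 18.8% a lower one than *Nphs1*.

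The comparison of GDNF with control cultures asked whether these genes differed at culture day 7 after a pulse given earlier. None of the 8 podocyte genes passed an adjusted p of 0.05 after Benjamini-Hochberg adjustment of the quasi-likelihood test in edgeR, and 0.0% of the 16557 genes tested did. At an unadjusted p of 0.05, 12.9% of the genes were lower and 9.25% were higher in GDNF cultures, and of the podocyte genes 1 was lower and 0 were higher. This balance turned without a correction for composition, where 3299 genes were higher and 850 lower at an unadjusted p of 0.05. Single cultures moved the total as well, from 3665 genes to 2192 without GDNF culture 22, 2321 without GDNF culture 12 and 2359 without control culture 3. DESeq2 called 1346 genes, 211 higher and 1135 lower, 14.7% of the 9170 genes to which it gave an adjusted p, and called none of the 7 podocyte genes among them, with *Tcf21* nearest at an adjusted p of 0.0995. In CPM, 13.2% of all genes tested had groups that did not overlap, and none of the 8 did. In TPM, where 23.4% of genes were higher and 0.679% lower without overlap, none of the 8 was in either class. The median log2 fold change of the 8 genes was 0.19, and that of all genes tested was 0.03.

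*Tcf21* was the podocyte gene with p below 0.05 before adjustment. Its CPM was 24.2 ± 9.83 in control and 15.3 ± 2.35 in GDNF cultures (SD, n = 4 each), a log2 fold change of -0.67 with an SE of 0.29. Its adjusted p in edgeR was 0.216. The p before adjustment was above 0.05 with scaling to library size alone, where the log2 fold change was -0.45, with upper quartile scaling at -0.65 and in limma-voom at -0.61, and in 6 of the 8 fits without 1 culture. By culture the CPM was 23.5, 25.4, 36 and 12 in controls 3, 7, 14 and 21 and 15.8, 13.8, 18.3 and 13.1 in GDNF cultures 6, 12, 17 and 22, so that 3 controls lay above all GDNF cultures and control culture 21 below them. Without control culture 21 the log2 fold change was -0.94 and the adjusted p 0.0583, and without control culture 14 it was -0.41 with an adjusted p of 0.361. In TPM the difference of means was -5.15, with an exact two-sided permutation p of 0.600.

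For *Wt1* the log2 fold change was 0.64 with an SE of 0.46, from 24.2 ± 13.8 CPM in control to 37.7 ± 17.2 CPM in GDNF cultures (adjusted p = 0.423 in edgeR). *Synpo* had 78.0 ± 37.6 CPM in control and 97.5 ± 49.9 CPM in GDNF cultures, a log2 fold change of 0.32 with an SE of 0.48 (edgeR adjusted p = 0.715). The other 5 genes had log2 fold changes between 0.01 for *Nphs1*, whose SE was 1.05, and 0.26 for *Ptpro* and *Magi2*, with SEs of 0.74 and 0.34. *Podxl* was at 0.13 with an SE of 0.33 and *Cd2ap* at 0.07 with an SE of 0.19. With scaling to library size alone, which raised the median of all genes to 0.25, these 5 estimates were 0.17 for *Nphs1*, 0.42 for *Ptpro*, 0.44 for *Magi2*, 0.32 for *Podxl* and 0.29 for *Cd2ap*, and limma-voom gave 0.61 for *Nphs1*, 0.55 for *Ptpro* and 0.21 for *Podxl*. For *Wt1* and *Tcf21* the estimate was larger than its SE, and for the other 6 genes differences of the size of their SEs could not be resolved with these cultures.
Single cultures moved the *Wt1* estimate by more than 1.5 times: it was 1.02 without control culture 14, 0.36 without control culture 3 and 0.33 without GDNF culture 17.
The signs of 4 of the small estimates depended on single cultures. Without control culture 3 the log2 fold changes of *Nphs1*, *Podxl* and *Ptpro* were -0.40, -0.05 and -0.11, without GDNF culture 17 those of *Nphs1* and *Podxl* were -0.41 and -0.10, and without control culture 14 that of *Cd2ap* was -0.08. Leaving out control culture 3 and GDNF culture 6 together, a choice made after the values were seen, gave 0.59 for *Wt1*, 0.41 for *Synpo*, 0.23 for *Ptpro*, 0.22 for *Magi2*, 0.14 for *Podxl*, 0.06 for *Cd2ap*, -0.06 for *Nphs1* and -0.70 for *Tcf21*, and again no gene passed the adjusted threshold.

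On the TPM scale, 7 of the 8 genes had a higher mean after the pulse, as did 78.6% of the 13698 genes that averaged 1 TPM or more, whose median log2 ratio was 0.40. The exact two-sided permutation p over 70 assignments lay between 0.114 for *Cd2ap* and 0.686 for *Nphs1*, where the smallest possible p is 0.0286. Without a correction for composition the median log2 fold change of all genes was 0.25, so a higher TPM here has to be read against a shift of the same direction in most genes.
Within the 4 cultures with more *Xist*, the difference of mean log2 CPM was 0.66 for *Wt1* and -0.73 for *Tcf21*, and within the 4 with more Y-linked transcripts it was 0.80 and -0.42. The sign was the same in both kinds of culture for the other 6 genes. With permutation restricted to cultures of one kind, the smallest exact p on TPM was 0.111, for *Wt1* and *Cd2ap*, and the smallest that this design allows is 0.0556.

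**Figure D2:**
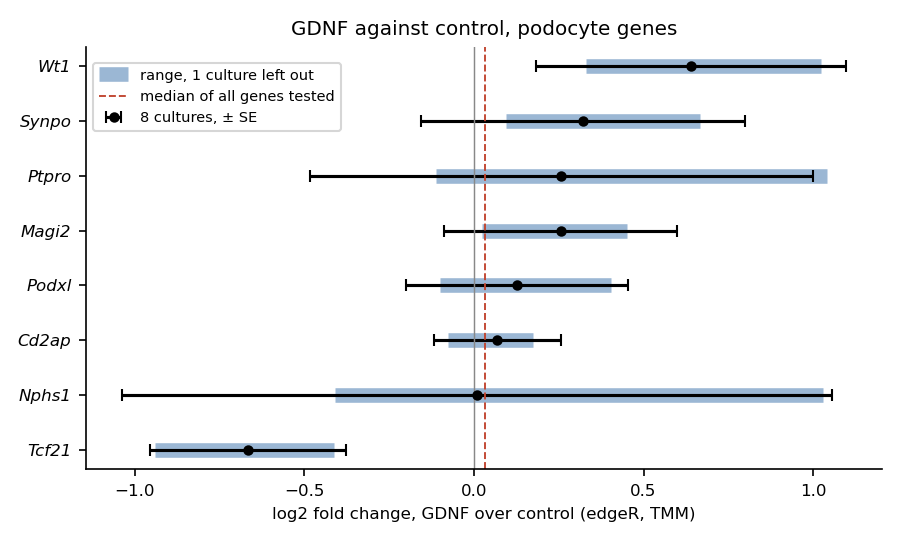
Log2 fold change of each podocyte gene, GDNF over control (points, edgeR with TMM; bars, SE), with the range obtained when 1 of the 8 cultures is left out (blue). The dashed line marks the median of all genes tested, 0.03. *Tcf21* stays below 0 and *Wt1*, *Synpo* and *Magi2* above 0 in every such fit, whereas *Nphs1*, *Ptpro*, *Podxl* and *Cd2ap* cross it.

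Of the 8 genes, *Ptpro*, *Magi2* and *Synpo* were listed with more than 1 transcript. Reads in a shared exon were counted for each transcript that holds it, so summed counts of these genes hold some reads more than once, and a ratio of transcript TPM or count density does not measure how much each start was used. The long transcripts of *Ptpro* encode the receptor form found in podocytes, while the short ones encode a truncated form known from blood cells, and the long NM_011216 starts 158272 bases upstream of the short NM_001164403. NM_011216 is 6621 bases long and NM_001164402 is 4167 bases long.
The long form was present in every culture. The added length of NM_011216 carried 8.96, 120, 288 and 101 counts per kb in control cultures 3, 7, 14 and 21, and 22, 138, 236 and 171 in GDNF cultures 6, 12, 17 and 22. NM_001164402 itself carried between 6.96 counts per kb in control culture 3 and 140 in control culture 14. The density over the added length was 1.21 to 2.65 times that over the short transcript, lowest in GDNF culture 6 and control culture 3. The mean ratio was 2.09 ± 0.583 in control and 1.73 ± 0.490 in GDNF cultures (SD, n = 4 each), and the groups overlapped.
At *Magi2*, the transcript from the upstream, CpG-rich start printed above (NM_001170746) had a higher TPM than one from the downstream start (NM_015823) in every culture. The ratio of their TPM was 1.12, 1.39, 1.65 and 1.6 in control cultures 3, 7, 14 and 21, and 1.12, 1.5, 1.51 and 1.71 in GDNF cultures 6, 12, 17 and 22. Cultures 3 and 6 again had the lowest value. The starts are 680694 bases apart, and GENCODE gives 203 exon bases shared with the same-strand gene *Gm29254*.
For *Synpo*, NM_177340 had 1.59 to 1.78 times the TPM of NM_001109975, which starts 14231 bases downstream. This ratio varied least between cultures, at 1.72 ± 0.0819 in control and 1.66 ± 0.0529 in GDNF cultures (SD, n = 4 each).

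**Figure D3:**
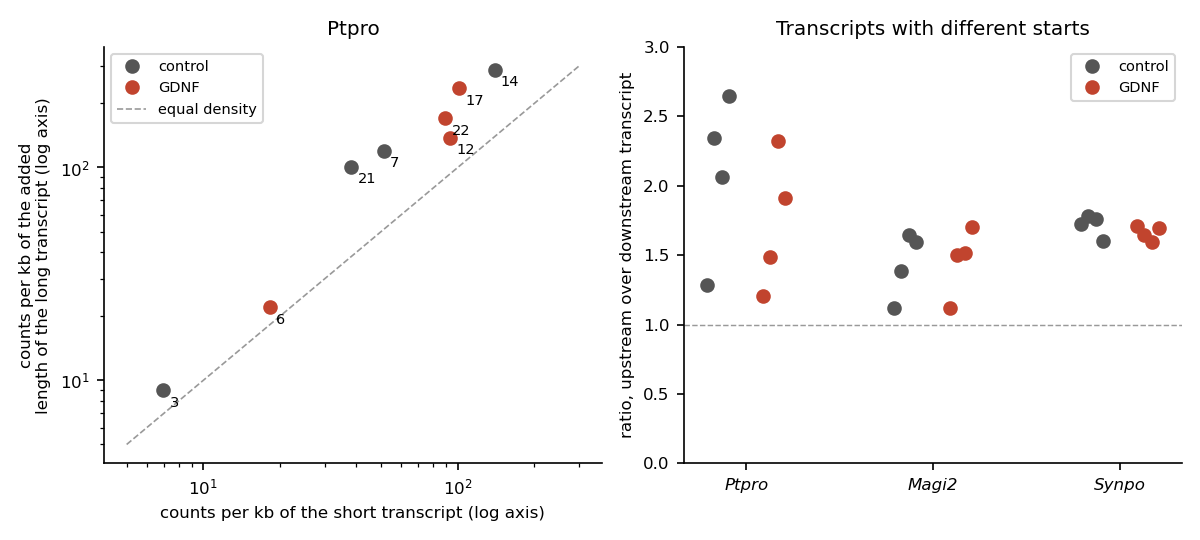
Left, counts per kb over the length that NM_011216 of *Ptpro* adds to the short transcript NM_001164402, against counts per kb of the short one, for each culture on log axes with a line of equal density. Right, the ratio of the upstream to the downstream transcript in each culture, as count density for *Ptpro* and as TPM for *Magi2* and *Synpo*. All 24 ratios lie above 1, and cultures 3 and 6 sit at the low end of *Ptpro* and *Magi2*.

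For every podocyte gene but *Tcf21*, the SD of log2 CPM within groups was larger than the log2 fold change between them. For *Wt1* the SD was 0.85 beside a log2 fold change of 0.64. The within-group SD was 2.22 for *Nphs1*, whose lowest count was 0. It was 1.54 for *Ptpro*, 0.93 for *Synpo*, 0.62 for *Magi2* and 0.56 for *Podxl*. It was 0.49 for *Tcf21* and 0.28 for *Cd2ap*, where the median of the 11461 genes with a mean of at least 5 CPM was 0.28. *Ptpro* was more variable than 99.6% of those genes and *Synpo* more than 97.0%.
*Nphs1*, *Wt1*, *Podxl*, *Synpo*, *Magi2* and *Ptpro* varied together. Over the 15 pairs among these 6 genes, Pearson's r of log2 CPM across the 8 cultures lay between 0.81 and 0.96 and Spearman's rank correlation between 0.74 and 1. The points are libraries, which each pair shares, and cultures 3 and 6 were the lowest of their groups for all 6 genes, so these values are a description. No culture lay apart in TPM by the 95% limit of Dixon's ratio of gap to range in any of the 16 sets of 4 values, 1 for each of the 8 genes and each group. Leaving out the 2 cultures farthest from the median of the first gene of a pair, r lay between 0.33, for *Podxl* with *Magi2*, and 0.91, for *Nphs1* with *Ptpro*. After the group means were removed, r over all 8 cultures was 0.81 to 0.96.
*Cd2ap* and *Tcf21* did not follow this order over the 8 cultures. With the 6 genes, *Cd2ap* had r between -0.49 and -0.24, and *Tcf21* between -0.02 and 0.15. For *Tcf21* this depended on few cultures. Without the 2 farthest cultures of each pair, its r was 0.25 to 0.72, which overlaps the range of the 6 genes. For *Cd2ap* r was then -0.93 to -0.03, where -0.03 was the pair with *Ptpro*, which left out control cultures 14 and 21. Without control culture 3 and GDNF culture 6 in every pair, *Cd2ap* had r of -0.93 to -0.39. *Cd2ap* and *Tcf21* ran opposite to each other, with r = -0.86 and a rank correlation of -0.90, and r = -0.59 without control cultures 14 and 21.

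**Figure D4:**
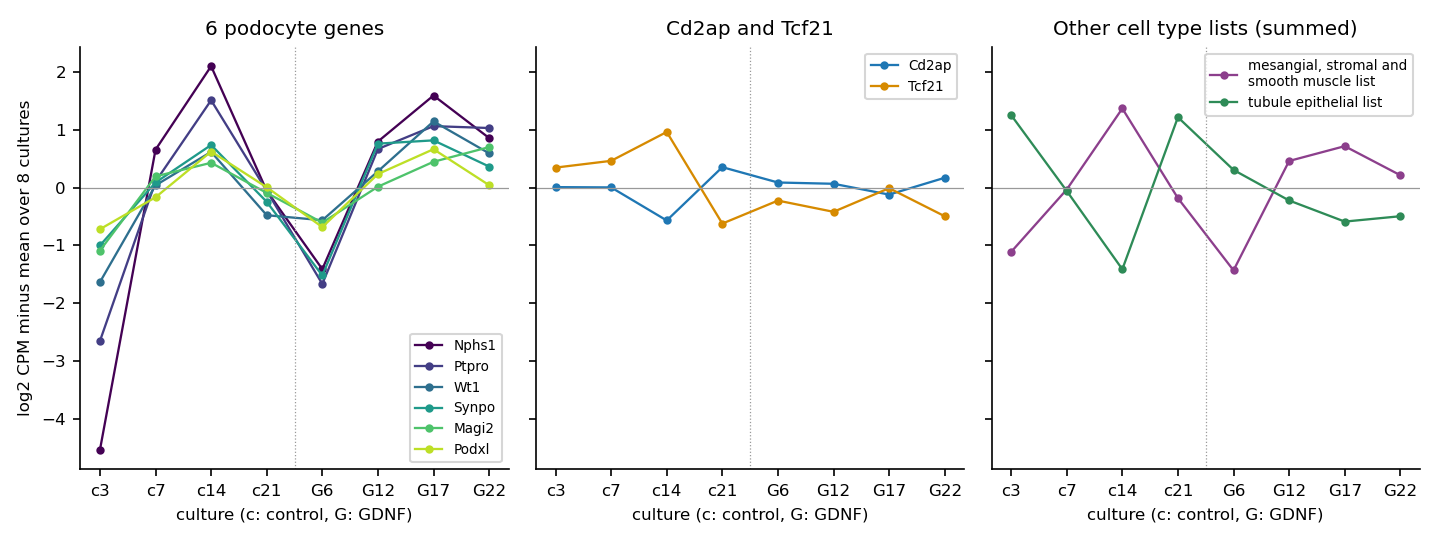
Log2 CPM minus its mean over the 8 cultures, for 6 podocyte genes (left), for *Cd2ap* and *Tcf21* (middle) and for the summed CPM of lists of other cell types (right). Lines only join the values of one gene or list, since cultures have no order, and the lowest *Nphs1* point stands for 0 counts with a prior count of 1. The 6 genes are lowest in c3 and G6, highest among controls in c14 and highest among GDNF cultures in G17, except for *Magi2*, which is highest in G22.

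Other cell types' genes moved with these profiles. The list of mesangial, stromal and smooth muscle genes, such as *Col3a1*, *Acta2* and *Tagln*, summed to 401, 1030, 2874 and 980 TPM in control cultures 3, 7, 14 and 21 and to 451, 1708, 2012 and 1645 TPM in GDNF cultures 6, 12, 17 and 22. None of its 14 genes was at 0 in all cultures, and its r with the 6 genes was 0.82 to 0.96, or 0.86 to 0.99 without the 2 cultures farthest from its median. With *Tcf21* its r was 0.29, or -0.40 without those 2 cultures. The tubule epithelial list, led by *Krt8*, *Krt18* and *Krt19*, summed to 2800, 1402, 573 and 4076 TPM in the control and 1854, 1468, 1243 and 1326 TPM in the GDNF cultures. Its r was -0.85 to -0.70 with the 6 genes, or -0.88 to -0.69 without the 2 farthest cultures, and 0.73 with *Cd2ap*. In bulk RNA, fewer cells of a type and less RNA per cell cannot be told apart, and the part of either list in the podocyte gene values was not tested.
Lists of other cells, some of which use these genes, gave weaker or opposite relations over the 8 cultures, several of which changed without the 2 cultures farthest from the median of the list. Endothelial genes, which share *Podxl*, summed to 54.6 to 159 TPM in control and 87.3 to 178 TPM in GDNF cultures, with r of 0.28 to 0.55, or -0.48 to 0.12 without those 2. Their leading genes by TPM were *Flt1*, *Emcn* and *Plvap*, while *Cdh5* was at 0 to 116 counts and *Pecam1* at 20 to 684 counts. Mesothelial genes, which share *Wt1*, summed to 9.20 to 104 TPM in control and 18.0 to 37.1 TPM in GDNF cultures, led by *Msln*, with *Upk3b* and *Upk1b* next, and r was -0.66 to -0.45, or -0.48 to -0.06. Parietal epithelial genes, led by *Pax8*, *Akap12* and *Cdh6*, gave r of -0.46 to -0.28, or -0.51 to -0.14. Nephron progenitor genes, led by *Six2*, *Eya1* and *Sall1*, gave 0.07 to 0.50, which rose to 0.54 to 0.83 without their 2 farthest cultures. Immune genes, led by *Ptprc*, *Cd68* and *Cd79a*, were low, at 4.36 to 5.94 TPM in control and 4.34 to 10.6 TPM in GDNF cultures, *Cd3e* was at 0 in all cultures, and r was -0.91 to -0.74, or -0.62 to -0.21.
Between GDNF and control cultures, none of the genes in these 7 lists passed the adjusted threshold in edgeR. At an unadjusted p of 0.05, 9.25% of all genes tested were higher and 12.9% lower. Of 11 endothelial genes, 2 were higher and 1 was lower. *Flt1* was higher without overlap at 0.81 with an SE of 0.26, and the lower gene was *Egfl7*, at -0.96 with an SE of 0.35. The median log2 fold change of the 11 was -0.25, with 4 positive and 7 negative. Among 14 mesangial, stromal and smooth muscle genes 1 was lower, *Lum*, at -1.30 with an SE of 0.37, and among 10 tubule epithelial genes 2 were lower, *Krt8* at -1.45 and *Cldn4* at -1.15 with SEs of 0.63 and 0.45. One parietal gene, *Cdh6*, and 1 progenitor gene, *Sall1*, were higher, at 0.91 and 0.73 with SEs of 0.28 and 0.20. No mesothelial or immune gene had an unadjusted p of 0.05 or less. *Cldn4* and *Egfl7* were chosen after their values were seen.

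Genes whose log2 CPM was most like each podocyte gene were sought among the 11461 genes with a mean of at least 5 CPM. The closest were *Tshz3*, *Adam19* and *Aebp1* for *Ptpro* (r = 0.99 for each), *Cep85l*, *Hspa12a* and *Adamts10* for *Wt1* (0.99 each), *Gpr153*, *Uaca* and *Col1a1* for *Synpo* (0.99 each), and *Antxr1*, *Ctif* and *Il1rl2* for *Magi2* (0.99 each). For *Podxl* they were *Sema3g*, itself a podocyte marker, *Ptgs2* and *Zcchc24*, with r of 0.98 to 0.99. *Nphs1* was nearest to *Pln*, *Runx1t1* and *Tgfbr1*, with r of 0.98 to 0.99, and *Ptpro* came in place 8 for it. The collagen gene *Col1a1* and the matrix gene *Aebp1* are thus among the nearest genes of *Synpo* and *Ptpro*. *Cd2ap* was nearest to *Slc38a1* and *Zfp74*, with r of 0.99 and 0.98, and *Tcf21* to *Glt8d1*, *Tmem30a* and *Vkorc1*, with r of 0.96 to 0.98. Likeness over 8 cultures is a description, and between 61 genes for *Tcf21* and 463 genes for *Wt1* had an r of at least 0.9.

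A wider set of 76 podocyte genes in 5 lists gave 75 genes that could be tested. None passed the adjusted threshold, the smallest adjusted p being 0.167, and 8 were higher and 6 lower at an unadjusted p of 0.05, shares near or below the 9.25% and 12.9% of all genes tested. The counts for single lists below stand against the same shares. Their median log2 fold change was 0.25, beside 0.03 for all genes.
The slit diaphragm list held 14 tested genes with a median of 0.29, of which 3 were higher and 1 was lower at an unadjusted p of 0.05. Its most abundant members were the adaptors *Nck1* and *Nck2* and the kinase *Fyn*, the higher genes were *Kirrel*, *Plce1* and *Pard3*, named after their values were seen, and the lower gene was *Nck1*, at -0.54 with an SE of 0.21 (edgeR adjusted p = 0.184). *Nck2* had -0.02 and *Fyn* -0.07. Among the 15 genes of foot process cytoskeleton the median was -0.06, with 1 higher, *Myo1e*, named after its value was seen, and 1 lower. Its most abundant genes were *Actn4*, *Cttn* and *Arhgdia*, and *Arhgdia*, which encodes a regulator of small GTPases, was the lower one, at -0.45 with an SE of 0.19.
Transcription factors other than *Wt1* and *Tcf21* had a median of 0.38 over 11 genes, and none had an unadjusted p of 0.05 or less. *Foxc1* and *Tcf4*, among the most abundant of them, were at 0.36 and 0.28 with SEs of 0.18 each.
Genes of the glomerular basement membrane and its adhesion receptors had the highest median, 0.39 over 15 genes, with 4 higher, *Lamc1*, *Hspg2*, *Dag1* and *Nid2*, and 2 lower, *Itgb1* and *Cd151*, of which *Dag1*, *Nid2* and *Cd151* were named after their values were seen. The laminin chain gene *Lamc1* was at 27.1 ± 5.30 CPM in control and 42.5 ± 5.16 CPM in GDNF cultures, and the perlecan gene *Hspg2* at 15.2 ± 0.801 and 22.2 ± 4.10 CPM (SD, n = 4 each). Neither gene's groups overlapped, and both had an edgeR adjusted p of 0.167. The integrin chain gene *Itgb1* was lower without overlap, at 648 ± 87.2 against 492 ± 49.6 CPM (edgeR adjusted p = 0.187). Groups without overlap were found for 6.99% of all genes in the higher and 6.26% in the lower direction, and for 2 and 1 of these 15. *Agrn* and *Nid1*, 2 of the most abundant genes of the list, were at 0.43 and 0.38 with SEs of 0.21 and 0.28.
Among 20 other podocyte markers the median was -0.04, with 0 higher and 2 lower. *Cdkn1c*, the cell cycle inhibitor that marks podocytes leaving the cycle, had 40.1 ± 7.35 CPM in control and 20.9 ± 6.14 CPM in GDNF cultures, a log2 fold change of -0.94 with an SE of 0.22 (edgeR adjusted p = 0.167). *Htra1*, a secreted protease, was at -0.70 with an SE of 0.29. *Vegfa*, which podocytes supply to the glomerular endothelium and tubules also make, was the most abundant of the list. It was at 104 ± 68.3 TPM in control and 136 ± 72.0 TPM in GDNF cultures (SD, n = 4 each). In CPM, from counts summed over transcripts, it had 1935 ± 1170 in control and 1972 ± 1027 in GDNF cultures. *Efnb1* and *Enpep*, next in TPM, had log2 fold changes of 0.23 and 0.48 with SEs of 0.19 and 0.32.

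**Figure D5:**
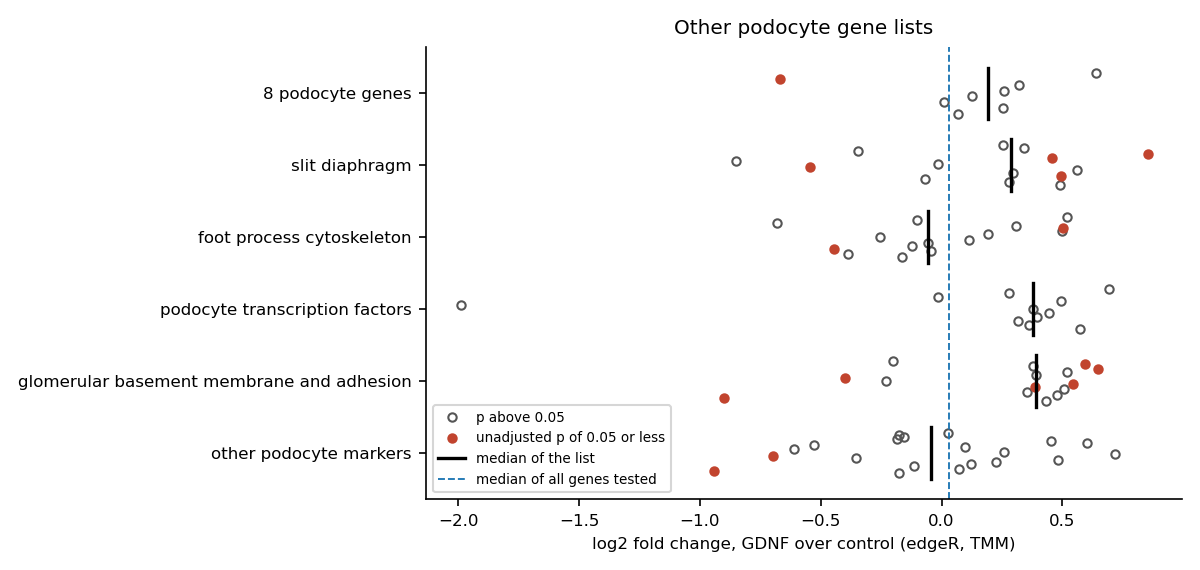
Log2 fold change, GDNF over control, of each tested gene of the 8 podocyte genes and of 5 wider lists (edgeR with TMM), red where the unadjusted p was 0.05 or less. Black bars mark the median of a list, highest for basement membrane and adhesion genes at 0.39, and the dashed line the median of all genes tested, 0.03.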

How the data were processed

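RNA of 4 control and 4 GDNF-pulsed tubuloid cultures was made into libraries with the SMART-Seq v4 kit after poly-A selection and sequenced as paired reads, 4 libraries to a lane, and the lane of each culture is not given in the sources used here. The submitters' processing notes name STAR, featureCounts and DESeq2 and the builds mm10 and GRCm38, without versions. The authors deposited, for each of 33068 RefSeq transcripts and each culture, a raw count, an FPKM and a TPM value, and the FPKM values served only to derive transcript lengths and the floor in TPM.

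Counts were summed per gene symbol over the listed transcripts, so reads in shared exons can enter a sum, and its CPM, more than once. TPM was taken from the transcript with the highest mean count. Genes were filtered with filterByExpr and compared by the quasi-likelihood test of edgeR 4.0.16 with TMM normalization, without covariates, in R 4.3.3, with Benjamini-Hochberg adjustment over all genes tested. TPM was compared by an exact two-sided permutation test of the difference of means over 70 assignments of cultures to groups, with adjustment over genes averaging 1 TPM or more. The log2 CPM used a prior count of 1. Alternatives were DESeq2 1.42.0 on the filtered genes, limma-voom 3.58.1 with quality weights, other normalizations and filters, 1 transcript per gene, culture kind as a term, log2 TPM with pseudocounts of 1 and 0.1, summed or rescaled TPM, TPM without a filter on low values, and leaving out each culture. Both fitting steps were tested on simulated data. Precision is limited by counts of 0 to 103 for *Nphs1*, while the other 7 genes had at least 160 summed counts in every culture. The sum of 160 was that of *Ptpro* in control culture 3 and holds shared reads more than once. Its transcript with the highest counts had 51 there.

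The 8 genes, the lists and the rule for named genes were chosen with earlier results of these data known. That rule names the 8 genes, the 3 genes with the highest mean TPM of each other list, up to 4 genes a list with an unadjusted p of 0.05 or less and no overlap in CPM, and the 3 genes most like each podocyte gene. Gene positions are RefSeq's in GRCm38.p6, and exon overlaps are from GENCODE M21. Python 3.11.15 with NumPy 2.4.6, pandas 2.3.3 and SciPy 1.17.1 was used for the rest. A few genes that the rule names are not reported here.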

Additional observations from a re-analysis of the deposited data

How the results depend on the processing

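No paired analysis was run, because the labels name no pairs and the control and GDNF cultures share no replicate numbers. In number order the cultures of the groups were alike in kind. Cultures 3 and 6 held both *Xist* and Y-linked transcripts, 7 and 12 had 0 TPM of Y-linked transcripts, and in the others Y-linked transcripts were higher. Whether they were grown as pairs is not given and was not tested, and culture kind does not stand in for such pairs. Culture kind (more *Xist* or more Y-linked transcripts) as a term, a block that rests on measured transcripts, called 0 genes and left each podocyte gene's sign in place, from -0.67 for *Tcf21* to 0.61 for *Wt1*, with 0.12 for *Nphs1* and 0.37 for *Ptpro*. DESeq2 called 1346 genes where the adjusted test in edgeR called 0 of 16557, against 3665 at an unadjusted p of 0.05, and its smallest adjusted p was 0.000281. The cause was not tested. Every other alternative called 0 genes, as did each fit without 1 culture.

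For the podocyte genes no alternative that was run moved an adjusted p below 0.05. Leaving out 1 culture gave log2 fold changes from -0.94 to -0.41 for *Tcf21*, 0.33 to 1.02 for *Wt1*, 0.09 to 0.67 for *Synpo*, 0.03 to 0.45 for *Magi2*, -0.11 to 1.04 for *Ptpro*, -0.10 to 0.40 for *Podxl*, -0.0774 to 0.17 for *Cd2ap* and -0.41 to 1.03 for *Nphs1*. The sign of *Nphs1* also turned to -0.0141 in DESeq2, to -0.0173 with DESeq2 size factors in edgeR and to -0.06 without control culture 3 and GDNF culture 6. On the TPM scale the difference of means ranged from -0.00911 to 0.0949 for *Nphs1*, -9.48 to 0.592 for *Tcf21*, 3.17 to 6.07 for *Cd2ap*, 0.841 to 2.78 for *Magi2*, 0.936 to 2.95 for *Podxl*, 0.244 to 1.31 for *Ptpro*, 5.85 to 15.6 for *Synpo* and 7.50 to 16.7 for *Wt1*, and the cause of the reversals, beyond the cultures left out, was not tested. *Nphs1* received no value with a filter of 1 CPM in at least 4 cultures and no adjusted p in DESeq2, and these cultures give it no settled direction.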
